A study of Drosophila melanogaster with 14 samples.

Results

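Replication timing was read in CySC-like nuclei, sorted from testis tumours of Drosophila melanogaster that resemble the somatic cyst stem cells of the testis. Of the 14 Repli-seq libraries of the series, the 4 described here are the early (E, fraction 1) and late (L, fraction 4) libraries of the 2 CySC-like replicates, chosen by their titles. The tumours carried traffic Jam-GAL4 and UAS-Upd on a w[1118] background, so that a driver of the cyst lineage expressed the JAK-STAT ligand Unpaired (Upd), and all of them also carried the histone reporter UAS-FRT-H3-GFP-FRT-H3-mKO. The E and L libraries come from the same tumours and differ in DNA content at the sort, and no untreated or wild-type testis was analysed here. Each preparation pooled 100 to 200 pairs of testes, which were held in medium with BrdU for 15 minutes before GFP-positive nuclei were sorted by DNA content into 4 fractions of S phase, and the DNA made during the pulse was immunoprecipitated. The age of the animals is not given in the sources used here. GSC-like tumours, in which nanos drives GAL4::VP16 and UAS-Upd in the germline, enter only the estimate of the spread and a comparison at the end.

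Chromosomes are copied in a fixed order. Origins in open, gene-rich chromatin fire first, and repressed domains and the heterochromatin around the centromeres are copied late. In flies the late domains of the arms are known to hold genes silent in the cell type, in part through the SuUR protein, and to shift between cell types. Somatic cyst stem cells sit beside the germline stem cells at the hub of the testis, divide under JAK-STAT signalling, and give rise to the cyst cells that enclose developing germ cells.

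Promoters of 6 genes are shown first, 3 from bins higher in E and 3 from bins higher in L, as examples of called genes from the lists below. They were read from the RefSeq genome of Release 6 (dm6), 100 bases before to 50 bases from the annotated start, 5′ to 3′ on the strand of the gene. RpL27 encodes a protein of the large ribosomal subunit, Cyp312a1 a cytochrome P450 and Cp38 a chorion protein of the egg shell, and all 3 start in bins higher in E. The gene beat-Va of the beaten path family of axon guidance, the sperm nuclear protein gene ProtA and the meiotic arrest gene can, a TAF homologue of spermatocytes, start in bins higher in L. Capitals mark TATCGATA, the core of the DNA replication-related element (DRE), in RpL27, and the TATA box letters TATAAA in Cyp312a1; the DRE begins 40 bases and the TATA letters 25 bases before the start. Neither motif was commoner in promoters of early bins than in all promoters (shares below).
RpL27 (chr3R:25685002-25685151, minus strand): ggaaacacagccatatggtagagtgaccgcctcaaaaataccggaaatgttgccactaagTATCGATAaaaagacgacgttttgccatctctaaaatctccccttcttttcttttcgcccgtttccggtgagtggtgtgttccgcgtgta
Cyp312a1 (chr3L:18132640-18132789, minus strand): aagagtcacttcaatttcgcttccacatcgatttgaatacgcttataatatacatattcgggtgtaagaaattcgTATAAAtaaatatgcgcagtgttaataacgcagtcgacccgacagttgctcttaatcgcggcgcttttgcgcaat
Cp38 (chrX:8481737-8481886, plus strand): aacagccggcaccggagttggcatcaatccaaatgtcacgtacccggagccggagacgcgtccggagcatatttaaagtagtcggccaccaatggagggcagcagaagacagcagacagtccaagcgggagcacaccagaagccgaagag
beat-Va (chr3R:12848370-12848519, minus strand): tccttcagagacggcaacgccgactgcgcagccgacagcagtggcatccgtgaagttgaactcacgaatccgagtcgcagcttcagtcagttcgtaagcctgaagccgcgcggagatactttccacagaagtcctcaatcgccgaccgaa
ProtA (chr2L:14881603-14881752, minus strand): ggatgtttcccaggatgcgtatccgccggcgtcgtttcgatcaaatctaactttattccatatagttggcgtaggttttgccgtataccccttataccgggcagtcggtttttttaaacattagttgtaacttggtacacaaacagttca
can (chr3L:10267062-10267211, minus strand): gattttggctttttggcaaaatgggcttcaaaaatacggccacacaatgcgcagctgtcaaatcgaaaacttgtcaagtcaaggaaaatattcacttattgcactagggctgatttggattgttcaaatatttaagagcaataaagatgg

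The libraries were deep. In units of M (1e6) reads, E held 74.1 in replicate 1 and 144 in replicate 2, and L held 144 and 88.0, so that a median 10 kb bin on an arm had 5039 to 9924 reads. Counting alone gives such a bin an error of 0.014 to 0.020 on the log2 scale, which leaves the spread between replicates as the limit, and reads of one library are not independent molecules after amplification. Median signal on the X arm was 0.439 to 0.636 of that on the autosomal arms and Y signal was present at 0.233 to 0.562 of it, as in male nuclei. The assay reads DNA, so the cyst lineage markers can show when their loci were copied but cannot check what the nuclei are. Replicate 2 also had early-mid (EM) and late-mid (ML) libraries, which did not follow the order of their labels: across bins E resembled ML (Spearman correlation 0.80) more than EM (0.276), and L resembled EM (0.81) more than ML (0.197). No call below uses the EM and ML libraries.

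Each 10 kb bin has a log2(E/L) per replicate, the log2 ratio of rescaled RPKM in E over L with 0.1 RPKM added, and positive values mean more signal early. A bin was called when its mean ratio over the 2 replicates differed from 0 in limma at an adjusted p under 0.05 (Benjamini-Hochberg over 13745 bins). Late calls outnumbered early calls: 1403 bins (10.2%) were higher in L and 136 (0.989%) were higher in E. The bins higher in L had a median log2(E/L) of -1.86 in replicate 1 and -1.44 in replicate 2. The bins higher in E had 1.76 and 0.92, so the early side was nearly as far from 0 as the late side in replicate 1 and closer to it in replicate 2. The ratios as a whole were wider in replicate 1, where the SD over bins was 1.08, than in replicate 2, where it was 0.72. The smaller early range of replicate 2 also shows in its top 5% of bins, which began at 0.91 against 1.48 in replicate 1.

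The balance between early and late calls rested on how the replicates were put on one scale and on the spread borrowed from the GSC-like libraries. With ratios set to equal SD in each replicate, 714 bins were higher in E and 2981 in L, with quantile normalized ratios 1174 and 2430, and with voom on reads recovered from the deposited values 1967 and 2355. Without GSC-like replicate 2, a shallow replicate, the counts were 976 and 2218 and contained all 1539 calls made with it, and without either CySC-like replicate no bin passed, with 750 (without replicate 1) and 2474 (without replicate 2) bins at an unadjusted p under 0.05.

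The replicates shared more of their latest bins than of their earliest. Their log2(E/L) had a Pearson correlation of 0.73 and a Spearman correlation of 0.696 across bins, which are neighbours on chromosomes and not independent. Both replicates were above 0 in 44.9% of bins, both below 0 in 33.6%, and of opposite sign in 21.6%. Of the latest 5% of bins of each replicate, 293 of 687 (42.6%) were in that class in both, and of the earliest 5% 73 of 688 (10.6%) were. The L libraries resembled each other (r = 0.885 between replicates on the log2 scale) more than the E libraries did (r = 0.685).

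**Figure D1:**
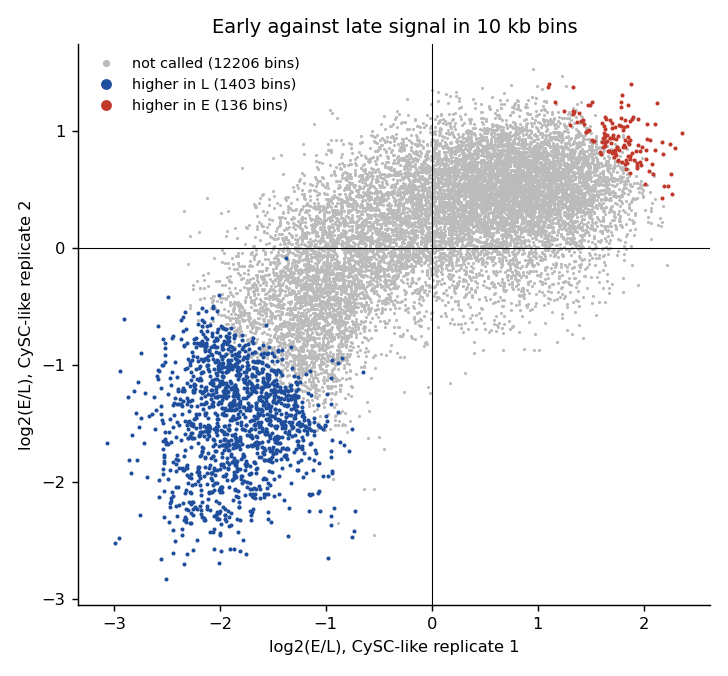
Each point is a 10 kb bin, with log2(E/L) of CySC-like replicate 1 on the x axis and of replicate 2 on the y axis; blue bins (1403) were higher in L, red bins (136) higher in E and grey bins were not called. The late calls reach below -2 in both replicates, whereas the early calls lie between 1.10 and 2.36 in replicate 1 and between 0.43 and 1.40 in replicate 2.

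Late calls were concentrated around the centromeres and in separate blocks of the autosomal arms, whereas the X arm held few late bins. The very latest bins lay mostly on the autosomal arms. Of the 293 bins in the latest 5% of both replicates, 266 lay there and 21 were pericentromeric. Pericentromeric bins were 1906 of all 13745. Pericentromeric bins, which are mostly heterochromatin, had a mean log2(E/L) of -1.01 and -0.68 in the replicates, against 0.071 and 0.14 over all arms. The difference was -1.08 in replicate 1 and -0.82 in replicate 2 (mean -0.95 ± 0.19 SD, n = 2), and 494 pericentromeric bins (25.9%) were higher in L against 907 arm bins (8.0%). It had the same sign on each chromosome, from -1.37 and -1.10 on 3L to -0.60 and -0.51 on 3R. A pair of replicates cannot give an exact sign-flip p below 0.5, so these differences are given as values without a test.

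The X arm was the earliest of the large arms in both replicates, with a mean log2(E/L) of 0.44 and 0.31 against -0.018 and 0.10 on the autosomal arms. The autosomal arms were not alike: 2R came next to X at 0.21 and 0.28, close to X in replicate 2. On 2R 79 bins (4.1%) were higher in L and 40 (2.07%) higher in E. The X arm lay above the autosomal arms by 0.46 in replicate 1 and 0.20 in replicate 2 (mean 0.33 ± 0.18 SD, n = 2). The X arm had fewer late calls and no larger share of early ones: 61 X arm bins (2.77%) were higher in L against 846 (9.26%) on the autosomal arms, and 17 (0.773%) were higher in E against 115 (1.26%). Calls were harder to reach on X, where median signal in E was 4.61 and 3.86 rescaled RPKM against 7.25 and 7.10 on the autosomal arms. The X bin with the highest mean (1.68) had an SE of 0.47, and the 2L bin at 1.58 had 0.42. Shares of calls therefore do not compare timing alone between X and autosomes. X arm bins made up 34.2% of the bins in the earliest 5% of both replicates and 2.05% of those in the latest 5%, against 16.0% of all bins. In male flies the X is the chromosome on which the MSL complex raises transcription, and its level in each library relative to autosomes is given above. On 3R, 341 bins (12.6%) were higher in L and on 2L 230 (10.5%), the arms with the largest share of late bins.

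The small chromosome 4 and the Y went opposite ways. Chromosome 4, which is rich in repeats yet carries active genes, had a mean log2(E/L) of 0.39 and 0.61, above the autosomal arms by 0.40 and 0.51, with 1 bin higher in E and none in L. The Y, almost wholly heterochromatin, had -0.84 in replicate 1 and -0.23 in replicate 2, and 2 of its 367 bins (0.545%) were higher in L. The replicates differed more on the Y than in any other region, so its place relative to the pericentromeres was not settled by these libraries.

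**Figure D2:**
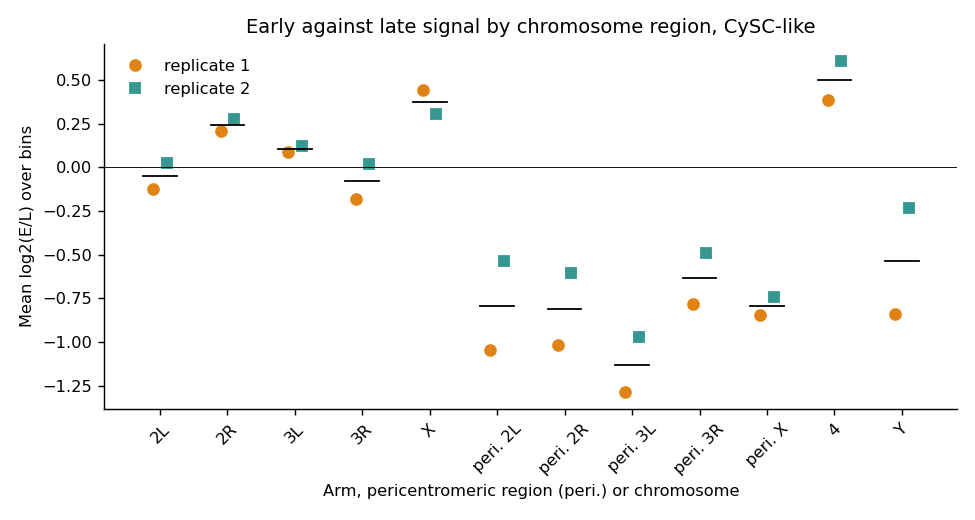
Mean log2(E/L) over the bins of each arm, pericentromeric region (peri.) and of chromosomes 4 and Y, with circles for replicate 1, squares for replicate 2 and a line at their mean. All 5 pericentromeric regions and the Y lie below 0 in both replicates, and X, 2R, 3L and 4 lie above it in both.

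**Figure D3:**
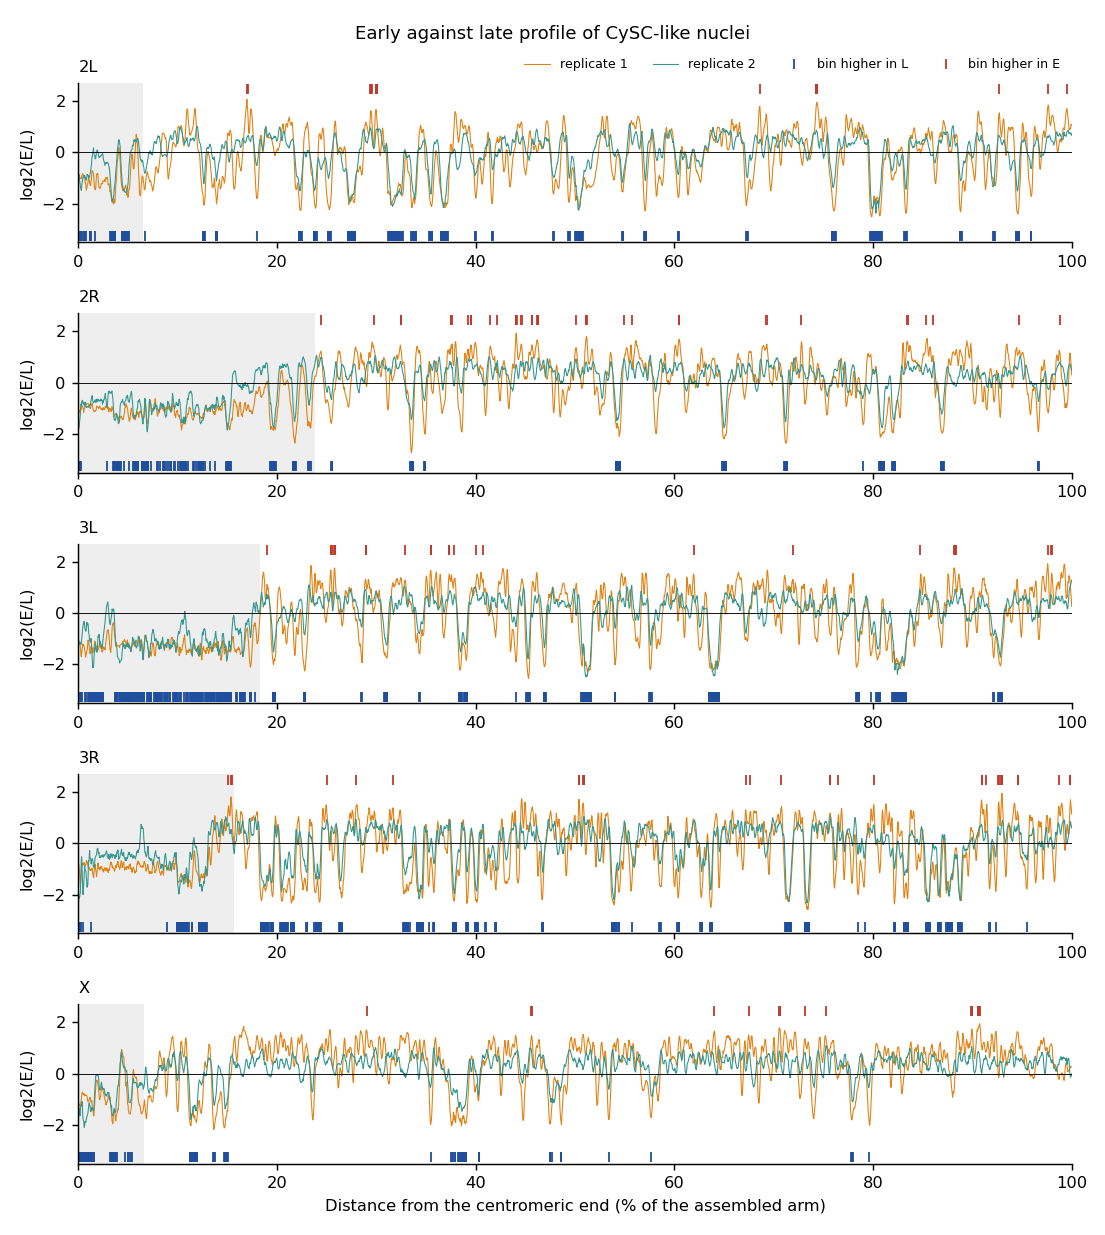
Log2(E/L) along the 5 large arms (y axis, running mean of 5 bins) against the distance from the centromeric end as a percentage of the assembled arm (x axis), in orange for replicate 1 and green for replicate 2, with pericentromeric sequence shaded. Blue ticks mark bins higher in L and red ticks bins higher in E: the late bins form blocks in which both replicates drop. They are 25.9% of the bins in the shaded parts and 8.0% of arm bins.

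Neighbouring bins had similar values over several bins. The correlation of log2(E/L) between arm bins 10 kb apart was 0.934 in replicate 1 and 0.905 in replicate 2; it was 0.631 and 0.649 at 50 kb, 0.355 and 0.399 at 100 kb, and 0.093 and 0.13 at 200 kb. Called bins of one direction were merged into domains across gaps of 1 bin. On the arms, 907 late bins formed 124 domains with a median length of 60 kb, of which 35 reached 100 kb and the longest 350 kb. The 132 early arm bins (1.16%) formed 77 domains with a median of 10 kb and a maximum of 40 kb. Of the 35 long late domains, 16 lay on 3R, 7 on 2L, 7 on 3L, 3 on 2R and 2 on X.

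The longest late domain, chr3L:4680001-5030000 (dm6), covered 350 kb in which all 35 bins were called. It held 2.09 rescaled RPKM in E and 8.06 in L of replicate 1, and 3.51 and 13.3 in replicate 2, so both L libraries were about equally far above their E library. Its mean log2(E/L) was -1.92 and -1.91, with adjusted p from 0.00276 to 0.0422 over its bins. It held 24 starts of coding genes, among them axo, which encodes axotactin, Dnah3, an axonemal dynein heavy chain, and Dhc64C, the heavy chain of cytoplasmic dynein. Of these genes Dnah3 started in the latest bin (-2.57 and -1.98), and axo near the edge (-1.74 and -1.01). Dhc64C, a gene used by most cells, lay at -1.72 and -2.01.

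The next late domains are given with their longest named genes. The domain chr2L:15830001-16140000 (310 kb, mean log2(E/L) -1.67 and -1.72) held beat-Ia, beat-Ib and beat-Ic, which encode immunoglobulin proteins of axon guidance, and BicC, which encodes an RNA-binding regulator of oogenesis. It held 2.34 rescaled RPKM in E and 7.46 in L of replicate 1, and 3.66 and 12.3 in replicate 2, so both L libraries again stood above both E libraries. The domain chr3L:9970001-10270000 (300 kb, -2.04 and -1.93) held the synaptic recognition genes dpr6 and dpr10, ect, scramb1, which encodes a phospholipid scramblase, and at its end can. In chr2L:4500001-4780000 (280 kb, -2.11 and -1.87) lay dpy, which encodes the giant extracellular matrix protein Dumpy, dcma, BG642163 and Elba3, a subunit of an insulator-binding complex. The bin with the start of dpy held 1.40 and 2.99 rescaled RPKM in the E libraries and 6.66 and 14.5 in the L libraries.

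A pair of late domains on 3R followed. The domain chr3R:5880001-6150000 (270 kb, -1.76 and -1.43) held side-III of the sidestep family, whose members are binding partners of Beat proteins, Gasp, which encodes a chitin-binding protein of the trachea, the RNA helicase gene Rm62 and the odorant-binding protein gene Obp83a. In chr3R:7610001-7830000 (220 kb, -1.88 and -1.12) lay the neuroligin genes Nlg1 and Nlg3, which encode synaptic adhesion proteins, the protease gene Sp7 and pyd3 of pyrimidine breakdown. The 6 domains were below 0 in both GSC-like replicates as well, from -0.60 to -1.59.

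The lowest single bins were adjacent, at chr3R:23530001-23550000. The bin of Ugt303B1, Ugt303B2, Ugt303B3 and CG10175, of which the Ugt genes encode glycosyltransferases of detoxification, held 1.34 and 2.97 rescaled RPKM in E and 11.0 and 17.0 in L. Its log2(E/L) was -2.95 and -2.48 (mean -2.72, SE 0.45, limma adjusted p = 0.00255). The bin beside it, in which no gene started, had -2.99 and -2.52. The other pair of lowest bins, chr3L:13690001-13700000 (-2.51 and -2.83) and chr3L:13640001-13650000 (-2.56 and -2.66), held no gene start either and belonged to 1 late domain of 210 kb.

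**Figure D4:**
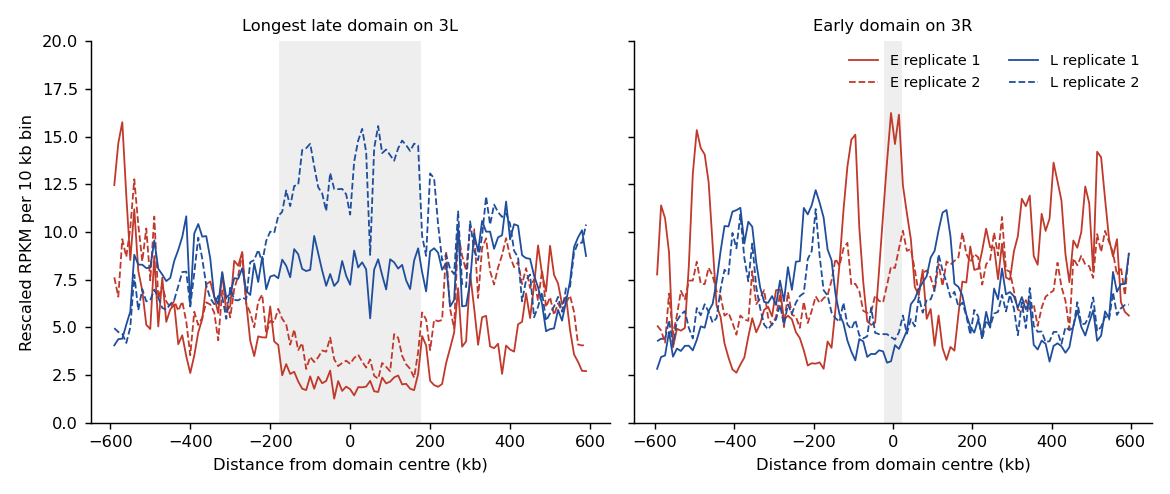
Rescaled RPKM per 10 kb bin (y axis) against the distance from the domain centre in kb (x axis) for the longest late domain on 3L and an early domain on 3R, both shaded, with E in red, L in blue, replicate 1 solid and replicate 2 dashed. In the late domain both L lines lie above both E lines across 350 kb, and in the early domain E of replicate 1 (mean 15.2) stands well above E of replicate 2 (mean 8.17).

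Pericentromeric late domains were shorter and nearly without genes. There were 125 with a median of 20 kb, and the 3 longest lay on 3L. The longest, chr3L:27580001-27810000 (230 kb, -1.40 and -1.47), held no coding start, and chr3L:23790001-24000000 (210 kb, -1.48 and -1.43) and chr3L:24740001-24950000 (210 kb, -1.43 and -1.36) held 1 each. Of the pericentromeric bins higher in L, 96% held no coding start, and 11.9% of their sequence was annotated as transposable elements. In the pericentromeric bins that were not called these shares were 85.8% and 17.9%. On the other side, 3 pericentromeric bins were higher in E, all near the boundary on 3R, in chr3R:4930001-4950000 (2.12 and 0.59) and chr3R:4840001-4850000 (1.52 and 0.92), and no coding gene started in either domain.

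Early domains were small, and 29.5% of early arm bins held no coding start. The domain chr3R:29800001-29840000 (dm6) held 15.2 rescaled RPKM in E and 3.58 in L of replicate 1, and 8.17 and 4.56 in replicate 2. E was the higher library in both, by 2.06 on the log2 scale in replicate 1 and 0.82 in replicate 2, with adjusted p from 0.0139 to 0.0380. In its 40 kb lay 10 coding starts, among them ca, which encodes the exchange factor Claret of pigment granules, the autophagy gene Atg16, neo, which encodes a zona pellucida domain protein, and ncd, the minus-end directed kinesin of the spindle. The bin of neo was the earliest of these, at 2.30 and 0.85.

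The domain chr2L:6020001-6060000 (40 kb, 1.97 and 0.87) held 12 coding starts, among them Pfas of purine synthesis, the myotubularin phosphatase gene mtm, slmo and IPIP. The bin of mtm had 14.5 and 9.19 rescaled RPKM in E against 3.28 and 4.36 in L (mean log2(E/L) 1.58, SE 0.42, limma adjusted p = 0.0132). E was thus above L in both replicates, and more so in replicate 1. Domains of equal length lay at chr2L:16440001-16480000 (1.61 and 0.95), with the imaginal disc growth factor genes Idgf1, Idgf2 and Idgf3, and at chr2L:16570001-16610000 (1.75 and 0.97), with 2 coding starts. The domain chr3L:20940001-20980000 (1.62 and 0.91) held fng, whose product Fringe modifies Notch, and Sems, which encodes the seminal fluid protease Seminase.

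The bin with the highest mean log2(E/L) lay on X, in the domain chrX:2360001-2390000 (30 kb, 1.90 and 1.26) with the exchange factor gene PsGEF. Bin chrX:2360001-2370000, in which CG2841 starts, held 9.11 and 5.52 rescaled RPKM in E and 2.01 and 2.28 in L. Its log2(E/L) was 2.13 and 1.24 (mean 1.68, SE 0.47, limma adjusted p = 0.0176). The 6 early domains were above 0 in both GSC-like replicates too, from 0.56 to 1.83.

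Early and late arm bins differed in gene content. Bins higher in E held 158 coding starts per Mb, bins higher in L 61.5, and all arm bins 120. When arm bins were split into 5 classes of equal size by mean log2(E/L), the density of coding starts was 72.3 per Mb in the latest class, then 92.1, 130, 143 and 160 in the earliest. Median GC content differed less, at 43.7% in early bins, 42.3% in late bins and 42.5% in all arm bins. With the GC content of bins taken out of each replicate's ratios, 38 bins were higher in E and 1380 in L. Annotated transposable elements made up 0.541% of early arm bins, 1.69% of late arm bins and 3.96% of all arm bins, and were thus lower in either called class than in the arms as a whole. By gene length, the late share was 5.14% for coding genes of up to 2 kb, 2.94% from 2 to 10 kb, 1.71% from 10 to 30 kb and 8.5% above 30 kb.

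Promoters of early and late genes were searched for 3 motifs on both strands, from 250 bases before to 50 bases from the start, on the arms. TATCGATA (DRE), found at promoters of many replication and growth genes, was in 6.73% of promoters in bins higher in E (14 of 208), 2.51% of those in bins higher in L (14 of 558) and 9.22% of all. Over 5 classes of genes of equal size, from latest to earliest, the DRE share was 4.87%, 7.82%, 10.2%, 12.3% and 10.9%. TATAAA was in 43.3%, 46.4% and 45.8% of early, late and all promoters, and GAGAGAG, bound by GAGA factor, in 5.29%, 5.56% and 5.9%. The motifs were counted separately, so a base shared by overlapping matches counts for both. A match describes letters and not a bound site.

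Of 13968 coding genes, taken at the bin of their start, 209 (1.5%) were in bins higher in E and 579 (4.15%) in bins higher in L, and the median gene had a mean log2(E/L) of 0.49. Genes in one bin share its value. Gene lists are given against these shares, and no list was tested as a set. Among called genes named in the text, Cp38, Gasp, Idgf1, Idgf2, ca, ncd, dpr6 and fng were not called with no filter on low bins, with median scaling or with values as deposited. With median scaling zen, bcd, Nlg3 and PsGEF were not called either. With values as deposited the calls of pb, zen, bcd, RpL27, can, Pzl, Idgf3, Nlg1, Nlg3, Obp83a, Rm62 and axo were lost as well.

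The immunoglobulin recognition genes of the nervous system were the latest list. Of 46 dpr, DIP and beat genes, which encode cell surface proteins that pair up neurons, 20 (43.5%) were in bins higher in L and none in bins higher in E, and the median was -1.10 (-1.55 in replicate 1 and -0.70 in replicate 2). Each of the 46 starts in a bin of its own. Of 14 beat genes 10 were called, with a family median of -1.62, against 3 of 11 DIP genes and 7 of 21 dpr genes. The beat-Va bin held 1.63 and 3.28 rescaled RPKM in E and 9.01 and 11.8 in L (mean log2(E/L) -2.10, SE 0.45, limma adjusted p = 0.00318). Both L libraries stood far above both E libraries at beat-Va, as they did at beat-IV (-2.06 and -2.07). The genes dpr15 (-1.93 and -1.83), dpr10 (-1.62 and -2.13) and DIP-theta (-2.24 and -1.46) followed.

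Receptors of taste and smell were split. Of 60 odorant receptor genes 10 (16.7%), starting in 8 bins, were higher in L and none in E. Lowest in replicate 1 were Or35a (-2.75 and -0.90) and Or85b (-2.55 and -1.0). Of 60 gustatory receptor genes 5 (8.33%), in 3 bins, were higher in L, among them Gr98a (-2.19 and -2.02). The 66 ionotropic receptor genes had 4 late members in 2 bins, 2 early members and a median of 0.47, close to that of all genes. The latest of them was Ir94f at -2.76 and -2.28. Of 10 nicotinic acetylcholine receptor genes none passed, from nAChRalpha4 at -1.69 and -0.31 to nAChRalpha3 at 1.28 and 1.11.

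Among the lists of male germline and seminal fluid genes no member was higher in E, and a few were higher in L. The lists are not complete: Sems, a seminal fluid gene named above, is not in them and was higher in E (1.83 and 1.09). ProtA and ProtB, the protamine-like genes of sperm, share a bin with 1.98 and 2.71 rescaled RPKM in E and 6.71 and 13.6 in L, and it was higher in L (-1.71 and -2.28, SE 0.45, limma adjusted p = 0.00425). Both replicates showed it, with the larger gap in replicate 2. The other genes listed with ProtA and ProtB did not pass, among them Mst77F (0.72 and 0.63) and Mst87F (-1.37 and -0.75). Of 11 meiotic arrest and spermatocyte genes, can was higher in L (-1.94 and -1.16, adjusted p = 0.0222 in limma), while sa, another TAF homologue, had 1.70 and 0.61 (adjusted p = 0.0720). Seminal fluid genes were in late bins in 5 of 47 cases (10.6%), with Acp33A at -1.60 and -1.66. No germline marker passed, from AGO3 (-1.14 and -0.83) and zpg (-1.60 and 0.18) to aub (1.79 and 0.19), with vas (0.089 and 0.37) and bam (-0.061 and -0.36) near 0.

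The Ste genes of X, which encode Stellate, the testis protein that is kept silent by small RNAs in normal males, differed in timing from the germline tumours. In bin chrX:14050001-14060000 start 8 Ste genes, and it held 12.1 and 13.3 rescaled RPKM in E and 33.0 and 51.7 in L. The bin was higher in L at -1.44 and -1.95 (limma adjusted p = 0.00368), whereas it had 1.25 and 0.76 in the GSC-like replicates, and the difference between the cell types had an adjusted p of 0.00972 in limma. Ste copies are near-identical repeats, and how reads with several matches were placed is not given in the sources used here.

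The loci of the cyst lineage itself were above 0 without passing the test. All 10 markers of the cyst lineage had log2(E/L) above 0 in both replicates, against 8798 of 13968 coding genes. The median of the markers was 0.65, against 0.49 over all coding genes. The transcription factor genes tj (0.25 and 0.54), zfh1 (0.78 and 0.30), chinmo (0.47 and 0.19) and eya (0.91 and 0.62) had values between 0.19 and 0.91. The bin of tj, whose promoter drives the tumour, held 5.35 and 6.73 rescaled RPKM in E and 4.48 and 4.58 in L. ImpL2, which encodes an insulin-binding protein, had 0.69 and 0.26. As means of the replicates, tj (0.40), chinmo (0.33) and ImpL2 (0.47) lay below the median coding gene. The means of zfh1 (0.54) and eya (0.76) lay above it.

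Of 11 JAK-STAT genes none passed in either direction, and the median was 0.52. The ligand genes upd1 (1.17 and -0.13), upd2 (1.54 and 0.002) and upd3 (1.39 and -0.50), neighbours on X, were high in replicate 1 and near or below 0 in replicate 2, so the replicates did not give their order. Upd is overexpressed from a transgene here, and the sources do not say whether reads of its sequence fall in the upd1 bin. The receptor gene dome (1.64 and 0.16), the kinase gene hop (0.64 and 0.20), Stat92E (0.65 and 0.32) and the target gene Socs36E (0.95 and 0.16) were above 0 in both. Hub and muscle markers, 4 genes each and other cell types that a testis holds, had no called member either, and Fas3 of the hub lay at -1.14 and -0.90.

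Of the genes of housekeeping complexes few passed. Over all coding genes 8798 of 13968 were above 0 in both replicates, against which the counts here are to be read. Of 86 ribosomal protein genes 65 were above 0 in both replicates, with a median of 0.65, and RpL27 alone (1.16%) was called. Its bin held 16.4 and 8.92 rescaled RPKM in E and 4.48 and 4.57 in L (mean log2(E/L) 1.40, SE 0.42, limma adjusted p = 0.0264), with E above L in both replicates. Of 32 proteasome genes 27 were above 0 in both, with a median of 0.74 and no call. Of the 27 replication genes 18 were above 0 in both, with a median of 0.54 and no call: Mcm5, a subunit of the replicative helicase, was on the late side (-0.97 and -0.38), and Mcm7 (1.44 and 0.28) and Cdc6, which loads the helicase (1.60 and 0.064), on the early side. Among 290 tRNA genes 5 were higher in E and 5 in L (1.72% each), against 1.36% and 4.86% of all annotated genes.

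No gene passed in the lists of timing and heterochromatin factors, of dosage compensation and of Polycomb and Trithorax genes, whose medians (0.55, 0.47 and 0.54 in that order) were close to the 0.49 of all coding genes. SuUR, the suppressor of underreplication that slows forks in late domains, had 0.51 and 0.60. The histone methyltransferase gene Su(var)3-9 had 1.56 and 0.46, and none of the 9 genes in this group passed. In the dosage compensation group of 8, also without a call, msl-1 had 1.15 and 0.49, the RNA genes roX1 and roX2 had 0.24 and 0.93, and 1.34 and 0.083, and the acetyltransferase gene mof 0.72 and -0.27. Of 13 Polycomb and Trithorax genes none passed, with trx at 1.11 and 0.80.

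The Hox clusters, which are silent over much of the body under Polycomb control, had 1 member that passed, pb, which was higher in L. Of 8 Hox genes 6 were below 0 in both replicates, against 2163 of 13968 coding genes, and the median was -0.82. The bin of pb held 1.96 and 4.31 rescaled RPKM in E and 8.34 and 8.05 in L, that is -2.04 and -0.89 (SE 0.45, limma adjusted p = 0.0296). Scr, at -1.91 and -0.69, just missed the threshold (adjusted p = 0.0505 in limma). Within the same Antennapedia complex ftz (-2.13 and -1.32) and the bin shared by zen and bcd (-1.68 and -1.22) were higher in L, while Antp (-1.33 and -0.29) was not called. In the bithorax complex Ubx (-0.71 and 0.083), abd-A (-0.097 and -0.75) and Abd-B (-0.54 and 0.90) did not pass, and Ubx and Abd-B had opposite signs in the replicates. The 28 homeodomain regulators had 3 late members, these being ftz, zen and bcd, and a median of 0.56.

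Genes known to sit in heterochromatin were late in part. Of 15 such genes 2 were higher in L: Snap25, a SNARE of synapses (-1.91 and -1.34, adjusted p = 0.0136 in limma), and Pzl, the Piezo-like gene (-1.27 and -1.90, adjusted p = 0.0216). The list median was -0.60, and vtd, which encodes a cohesin subunit, had 0.21 and 0.53, RpL5 0.18 and 0.81, and lt -1.42 and -0.018. None of 11 Y fertility genes passed, with a median of -0.32 and 8 below 0 in both replicates. The histone gene cluster on 2L, 111 genes in 14 bins, had 0.61 in replicate 1 and -0.13 in replicate 2 and no called bin (lowest adjusted p = 0.510 in limma).

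Clustered genes of digestion, detoxification and the egg shell completed the picture. Of 16 Jonah protease genes of the gut, in 8 bins, 4 were higher in L, in 2 bins, with Jon65Aiv at -2.08 and -1.21. Of 81 cytochrome P450 genes 5 were late, in 3 bins, Cyp6a18 at -2.45 and -2.08 the most. A further 2 were early, with Cyp312a1 at 1.79 and 1.20 the most. Of 70 cuticle protein genes 1 was late and 2 were early. The chorion genes of the egg shell had the highest median, 1.09 over 9 genes in 4 bins, but rest on replicate 1 (1.80 against 0.39 in replicate 2), and Cp38 was called (1.97 and 0.83, adjusted p = 0.0454 in limma).

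**Figure D5:**
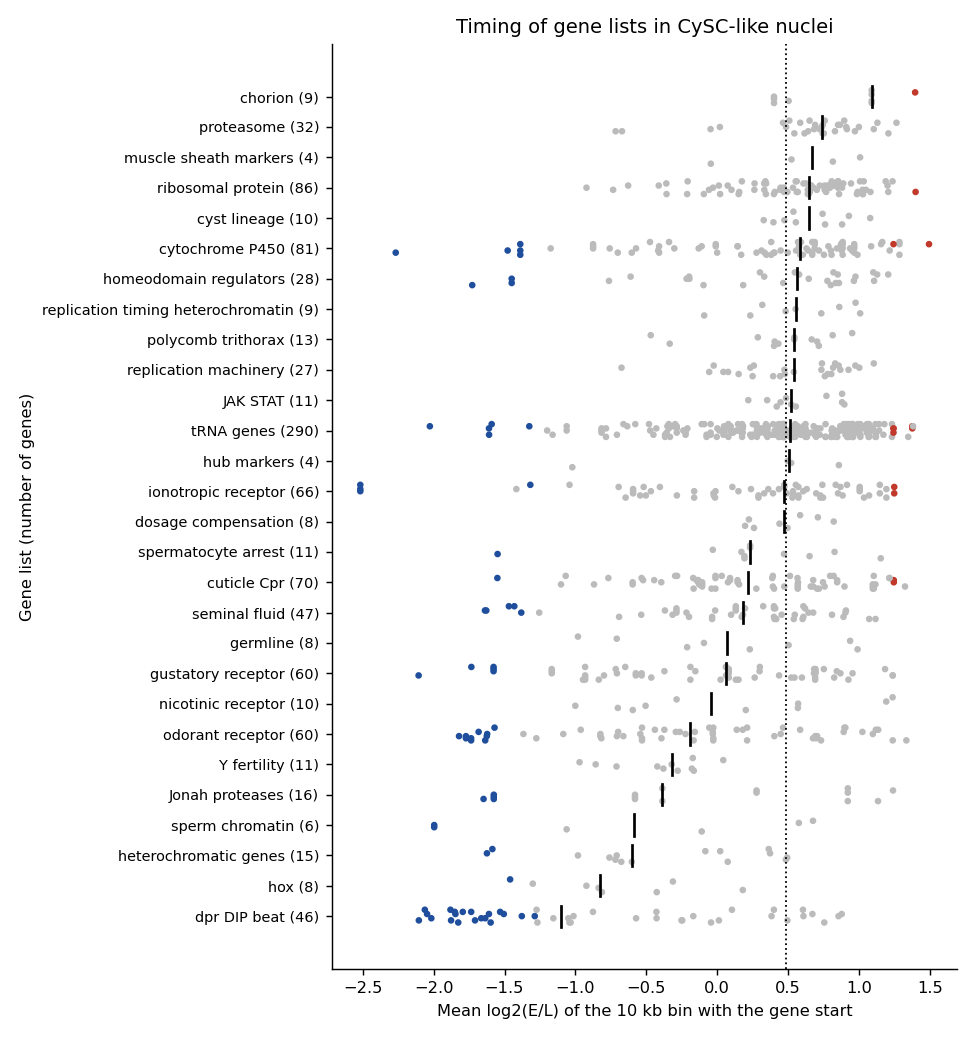
Each point is a gene at the mean log2(E/L) of the bin with its start (x axis) in one of the lists (y axis, number of genes in brackets), blue where the bin was higher in L, red where higher in E and grey where not called. Bars mark list medians and the dotted line the median of all coding genes (0.49); the dpr, DIP and beat list lies farthest left at -1.10, and the chorion list farthest right at 1.09.

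The middle libraries of replicate 2 were set beside the calls as a description. In arm bins higher in E, E took a median 34.3% of the signal summed over the fractions, EM took 20.5%, ML took 27.5% and L took 17.6%. In arm bins higher in L these shares were 15.4%, 27.6%, 14.7% and 41.6%. The library labelled EM was thus higher than the one labelled ML in late bins and lower in early bins, which goes against the order of the labels, and whether the 2 were exchanged was not tested.

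Against GSC-like tumours, late bins were shared in part. Of the 1403 CySC-like late bins 598 (42.6%) were also higher in L in GSC-like nuclei, where they were 35.1% of 1702. Of the 136 early bins 92 (67.6%) were among 2466 early GSC-like bins (3.73% of those). Over all 13745 bins, 1702 were higher in L and 2466 higher in E in GSC-like nuclei. Both cell types were tested with the same spread per bin, so their calls are not independent of each other. Differences between the cell types passed in limma in 14 bins, with 1331 at an unadjusted p under 0.05. In 13 of them the CySC-like nuclei were earlier, and in 1, the Ste bin, they were later. The Ste bin was also the 1 bin of the 14 that lay on an arm and the 1 that was called within the CySC-like comparison. GSC-like replicate 2 held 7.05 M reads in E and 3.26 M in L, so these differences rest on a shallow replicate.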

How the data were processed

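Repli-seq libraries of sorted nuclei were analysed from the table the authors deposited, which has one RPKM value per library and 3 kb window, at a step of 1 kb. The header gives no unit. RPKM was inferred because all values in 3 kb windows, and 99.2% in other windows, were whole multiples of 1 read (within 0.05 read), so that each library's total is known. Reads were aligned with Bowtie2 2.4.5 to dm6, per the submitters' processing notes; how duplicates and reads with more than 1 match were handled is not given in the sources used here. Sequence lengths equalled those of Release 6, and genes are from Ensembl release 115.

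Of 139491 windows on 1870 sequences, 137552 lay on the 7 chromosome sequences used and were averaged by centre into bins of 10 kb. Libraries were scaled to the same mean bin, 0.1 RPKM was added and log2 taken, which understates changes of low bins. A bin with no signal in at least 4 of the 8 early or late libraries was dropped (12 of 13757). Pericentromeric sequence was set at 2L from 22 Mb, 2R to 6 Mb, 3L from 23 Mb, 3R to 5 Mb and X from 22 Mb. The log2(E/L) of each replicate was fitted with limma 3.58.1 (R 4.3.3; lmFit, eBayes with a trend), CySC-like and GSC-like ratios sharing the spread, with Benjamini-Hochberg adjustment. E and L are paired because the series' design text says that each replicate was sorted into its fractions; their deviations had a correlation of -0.063 across bins, so the pairing comes from the text and not from the values. The design text calls the replicates biological, and the p-values measure the spread between these preparations, those of GSC-like included. By their titles GSC-like replicate 1 is SE and replicate 2 PE, read here as single-end and paired-end, and both CySC-like replicates are SE. The GSC-like replicates held 86.2 and 7.05 M reads in E and 69.3 and 3.26 M in L. The shared spread thus includes these differences of library type and depth. On simulated data of 13745 bins, a log2 change of 1.5 was recovered in 54% of 100 bins and one of 2.5 in 100% of 100, with 5 false calls. The simulated bins were independent, had the spread of the fit itself, and changed equally in both CySC-like replicates. In the data neighbouring bins are correlated and the replicates differ in the SD of their ratios. The simulated rates therefore check the fit and do not give the rates for these data.

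Domains named are the 6 longest in each direction on the arms of 2L, 3L, 3R and X (those of 2R were counted but, by this rule, not named) and the 3 longest in pericentromeric sequence, with up to 4 genes each, longest first, and the 4 highest and 4 lowest called bins. From each list up to 3 highest and 3 lowest members, called members and a fixed set of marker and Hox genes could be named. The members, lists and tests were chosen with earlier results of these data known. Some listed symbols (lat, kl-1, ks-1 and rye) had no match in the annotation. Tables were made with Python 3.11.15, numpy 2.4.6, pandas 2.3.3, scipy 1.17.1 and statsmodels 0.14.6, and plots with matplotlib 3.10.9. Alternatives covered bin size, scaling, pseudocount, filters, variance trend, the replicate block, the samples in the fit, GC content, voom on recovered reads, boundaries and each replicate left out.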

Additional observations from a re-analysis of the deposited data

Results flagged for a closer look

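Between CySC-like and GSC-like nuclei 14 bins differed in log2(E/L) in limma. The Ste bin was one of them, with an adjusted p of the difference of 0.00972, and it was late in the somatic and early in the germline tumour.

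The bins of 9 named genes had one sign in both CySC-like replicates and the opposite sign in both GSC-like replicates, and for none did limma's test of the difference pass. The CySC-like mean was 0.56 at Socs36E, where GSC-like replicates had -0.64 and -0.20 (adjusted p of the difference 0.626). It was 0.77 at upd2 against -1.13 and -1.42 (0.345), 0.83 at Cdc6 against -0.17 and -0.13 (0.626), and 0.86 at Mcm7 against -0.15 and -0.0061 (0.654). On the late side it was -0.98 at AGO3 against 0.30 and 0.74 (0.398), -0.72 at lt against 0.28 and 0.33 (0.613), and -0.67 at Mcm5 against 0.27 and 1.78 (0.365). It was -1.0 at nAChRalpha4 against 0.17 and 0.31 (0.513), and -1.29 at dpr6 against 0.63 and 0.27 (0.345). At upd2 and lt the smaller of the CySC-like values was 0.0017 and -0.018.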

How the results depend on the processing

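The counts of called bins changed with the processing and with the samples in the fit. Counts at different bin sizes have different totals. The count of bins higher in E was 136 of 13745 tested. It was 139 of 27474 with 5 kb bins and 13 of 2754 with 50 kb bins. With 10 kb bins it was 38 with GC content removed, 57 with median scaling, 82 with no filter and 32 with values as deposited. It was 714 with standardized and 1174 with quantile normalized ratios, 1967 with voom on recovered reads, 997 with CySC-like ratios only and 976 without GSC-like replicate 2. The count of bins higher in L was 1403 of 13745 tested. It was 2263 of 27474 with 5 kb bins and 308 of 2754 with 50 kb bins. With 10 kb bins it was 829 with values as deposited, 2981 with standardized and 2430 with quantile normalized ratios. It was 2355 with voom, 2246 with CySC-like ratios only and 2218 without GSC-like replicate 2. Leaving out either CySC-like replicate gave 0 to 0 bins in both directions, with fewer samples in the fit. The other settings stayed within 1.5 times. The pericentromere minus arms value was -1.18 as a median over bins, and -0.77 to -1.05 with the boundaries moved by 1 Mb. Bins in the earliest and latest 5% of both replicates were 133 and 554 of 27474 with 5 kb bins, and 14 and 66 of 2754 with 50 kb bins. With 10 kb bins they were 73 and 293 of 13745. Of 29 lists, 13 had a median above that of all coding genes, and 8 to 11 without one CySC-like replicate.

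With no replicate block, E and L as separate groups, 0 bins were higher in E and 0 in L, with 1471 at an unadjusted p under 0.05. All 66 called genes among the 112 that the naming rule and the family look-ups gave lost their call without the block or without either CySC-like replicate; 21 lost it with values as deposited, 13 with median scaling and 9 with no filter. No called gene changed sign. Among genes that were not called, leaving out one CySC-like replicate gave -0.13 to 1.17 for upd1, -0.50 to 1.39 for upd3, -0.71 to 0.083 for Ubx, -0.27 to 0.72 for mof, -1.60 to 0.18 for zpg, -1.24 to 0.22 for side-II and -0.54 to 0.90 for Abd-B, and standardized ratios gave -0.0047 for mof. The cause of these changes was not tested.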

Other observations

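The sidestep genes, whose products bind Beat proteins on motor axons and muscles, were looked at after side-III had appeared in a late domain. Of 8 side genes 4 were in bins higher in L and none in bins higher in E, with a median log2(E/L) of -1.30 (-1.56 in replicate 1 and -1.04 in replicate 2). The latest was side-VI, at -2.10 and -2.09 (limma adjusted p = 0.00303), followed by side itself at -1.99 and -2.06 (adjusted p = 0.00415 in limma). The exceptions included side-VII at 0.23 and 0.60, side-IV at -1.28 and -0.70, and side-II at -1.24 and 0.22, none of which was called. Of the 4 neuroligin genes 2 were higher in L, both in 1 domain of 3R. These families were chosen after their values were seen.

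The UDP-glycosyltransferase genes were also looked at after the fact, because the latest bin with genes held 3 of them. Most of the family was not called: 5 of 35 Ugt genes, in 23 bins, were higher in L and none in E. Over all coding genes 4.15% were higher in L and 1.5% in E. The family median was 0.25, against 0.49 for all coding genes. Ugt35C1 had -2.42 and -0.98, while the cluster of Ugt35A1 and Ugt35B1 on the same arm had 0.13 and 0.75. The satellite AAGAG was present as runs of at least 4 units in 13 tested bins, and none of them was called in limma. Over all bins 10.2% were higher in L and 0.989% in E, so no call among 13 bins does not set them apart.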
